A study of Homo sapiens with 9 samples.

Results

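The 42 genes examined here mainly encode the enzymes that make cholesterol and fatty acids, the proteins that set their transcription, and transporters that carry sterol away. They were taken by gene name from a count table of 58735 genes, and all 42 were found and passed the filter on low counts, among 15232 genes that did. They comprise 18 enzymes of sterol synthesis, 6 regulators and carriers of the SREBP system, and 15 genes of fatty acid synthesis, modification and activation. The remaining 3 are the sterol exporters ABCA1 and ABCG1 and the ubiquitin ligase MYLIP, all targets of the LXR receptors. The cells were HEYA8, a human ovarian cancer line, wild type by the labels, which call it high-grade serous. Cells at 70% confluency received sunitinib, a drug that blocks receptor tyrosine kinases such as those of VEGF and PDGF, or compound 32, or an equal volume of the solvent DMSO, each for 24 h and in 3 samples. The sources used here give neither the doses of the compounds nor the structure of compound 32. The study asks how sunitinib and compound 32 change the transcriptome, within work on sunitinib and DNA repair. The series text speaks of biological replicates for sunitinib and for DMSO. Nothing says so of compound 32, whose 3 samples may be technical replicates. The p-values rest on 1 spread estimated over all 9 libraries, and these 3 samples enter it. All 9 samples carry the batch label Day 1. Growth was in medium with fetal bovine serum, which supplies lipoprotein cholesterol and fatty acids to the cells.

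Cells build cholesterol from acetyl-CoA through mevalonate, isoprenoid diphosphates, squalene and lanosterol, and build fatty acids from the same acetyl-CoA through malonyl-CoA. Transcription of both routes depends on the SREBP transcription factors, the products of SREBF1 and SREBF2, which are made as membrane proteins of the endoplasmic reticulum. SCAP escorts them to the Golgi for cleavage when sterol is scarce, and INSIG1 and INSIG2 hold SCAP back when it is plentiful. The product of SREBF2 acts mainly on sterol genes and the main SREBF1 isoform of liver on fatty acid genes. Oxysterols act in the other direction through the LXR receptors, which induce the cholesterol exporters ABCA1 and ABCG1, the ubiquitin ligase MYLIP, and SREBF1 itself.

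SREBPs bind a sterol regulatory element and act together with NF-Y, a factor that binds the CCAAT box. RefSeq promoter windows, 250 bases before to 50 after an annotated start on GRCh38.p14, were matched by symbol for 37 of the 42 genes. A CCAAT box (CCAAT on either strand) stood in a window of 27 of these 37, or 73.0%, against 39.8% of all 27167 genes with a window. It was found for 5 of 6 mevalonate and isoprenoid genes and 8 of 9 genes of the steps after farnesyl diphosphate. The stricter sequence TCACNCCAC, a form of the sterol regulatory element, on either strand, was found for 2 of the 37, SREBF2 and ACSL1, or 5.41%, against 1.38% of all genes. The 2 motifs can share at most 1 base, CCAAT and ATTGG overlap in IDI1, a match is only a match of letters, and these windows hold only the bases next to the start. The stretches of 100 bases below run 5′ to 3′ in the direction of the gene. Each lies within the window before the start and was placed to hold the motifs where there are any. They are shown for members picked by hand, not by size of change: SREBF2 is included and ACSS2 is not. The selection therefore does not show how common the motifs are. The capitals mark CCAAT or its reverse complement ATTGG and, in SREBF2, the sterol regulatory element. INSIG2, the member with the largest rise under compound 32, has neither in the stretch shown.
HMGCS1, chr5:43313461-43313560, minus strand, 148 to 49 bases before the start: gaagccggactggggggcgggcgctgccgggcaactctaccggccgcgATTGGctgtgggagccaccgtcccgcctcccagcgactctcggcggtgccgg
IDI1, chr10:1048922-1049021, minus strand, 135 to 36 bases before the start: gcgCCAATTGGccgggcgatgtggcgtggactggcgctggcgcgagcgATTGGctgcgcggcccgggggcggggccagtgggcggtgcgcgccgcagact
MVD, chr16:88663125-88663224, minus strand, 133 to 34 bases before the start: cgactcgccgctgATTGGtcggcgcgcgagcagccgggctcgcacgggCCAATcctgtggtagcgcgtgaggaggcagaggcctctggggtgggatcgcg
MSMO1, chr4:165327569-165327668, plus strand, 100 to 1 bases before the start: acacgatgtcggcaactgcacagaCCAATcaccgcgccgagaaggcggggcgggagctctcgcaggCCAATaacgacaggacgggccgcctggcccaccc
STARD4, chr5:111512614-111512713, minus strand, 178 to 79 bases before the start: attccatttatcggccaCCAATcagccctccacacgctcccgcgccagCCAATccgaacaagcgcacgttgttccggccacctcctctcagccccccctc
INSIG1, chr7:155297660-155297759, plus strand, 218 to 119 bases before the start: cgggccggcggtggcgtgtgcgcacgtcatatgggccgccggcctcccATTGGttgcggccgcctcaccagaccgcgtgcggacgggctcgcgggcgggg
TM7SF2, chr11:65111750-65111849, plus strand, 122 to 23 bases before the start: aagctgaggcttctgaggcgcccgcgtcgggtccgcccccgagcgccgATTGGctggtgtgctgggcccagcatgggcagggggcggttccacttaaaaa
SREBF2, chr22:41832926-41833025, plus strand, 179 to 80 bases before the start: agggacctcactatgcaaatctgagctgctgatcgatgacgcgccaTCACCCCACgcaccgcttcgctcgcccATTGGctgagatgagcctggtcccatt
INSIG2, chr2:118088371-118088470, plus strand, 100 to 1 bases before the start: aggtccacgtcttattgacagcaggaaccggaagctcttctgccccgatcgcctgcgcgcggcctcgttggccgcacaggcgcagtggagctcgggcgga

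Library totals ran from 15498101 to 18006171 counts, and values are given in CPM, each count divided by its library's TMM-scaled total. Sunitinib replicate 3 stood apart from its group: its counts differed from those of replicates 1 and 2 by 41.3 and 40.3 on a chi-square scale divided by its degrees of freedom, where other pairs of one group reached at most 3.04. It held 7.57% of its counts in cytosolic ribosomal protein genes and 5.36% in mitochondrial genes, against 4.14 to 4.99% and 3.42 to 3.92% in the other 8 libraries. Sunitinib results are therefore given with and without it. Its part in the spread also enters the compound 32 results, since all 9 libraries share 1 estimate of the spread. Of 9 epithelial and ovarian carcinoma markers 6 reached 1 CPM on average, with PAX8 at 123, 117 and 132 CPM in sunitinib, compound 32 and DMSO cells. KRT7 averaged 224, 66.1 and 72.2 CPM in these groups and WT1 5.12, 10.6 and 12.4 CPM, so that KRT7 was highest and WT1 lowest with sunitinib, while the list's sum ran from 1294 to 1377, 1453 to 1566 and 1239.8 to 1321 CPM. MUC16 and CDH1 were at or near 0, below 0.2 CPM in each group, and vimentin was abundant, at 3631 CPM in DMSO cells. None of 4 leukocyte, 2 hepatocyte or 3 adipocyte markers averaged 1 CPM over the 9 libraries. The 2 hepatocyte markers, ALB and APOA1, nevertheless summed to 0.212 to 3.12 CPM in sunitinib cells. Their sum was at most 0.0626 CPM in compound 32 cells and 0.193 CPM in DMSO cells. The 2 endothelial markers, CDH5 and PECAM1, summed to 12.9 to 16.3 CPM in sunitinib cells, 5.2 to 6.08 in compound 32 cells and 7.01 to 9.59 in DMSO cells. Of 3 fibroblast markers 1, COL1A1, averaged 1 CPM or more, and the 3 summed to 0.93 to 1.76 CPM in sunitinib cells, 2.46 to 3.71 in compound 32 cells and 1.56 to 1.87 in DMSO cells. The part of these markers in the results was not tested.

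Both compounds raised genes of sterol synthesis and moved genes of fatty acid synthesis in both directions. Under sunitinib 9 of the 18 sterol enzymes rose and 0 fell, and of the 15 fatty acid genes 6 rose and 3 fell. Under compound 32 10 sterol enzymes rose and 0 fell, while 3 fatty acid genes rose and 2 fell. The largest called changes are listed here down to the size of that of ACACA under compound 32, a log2 fold change of -0.54. Under sunitinib these were ACSS2, ABCG1, TM7SF2, MVD, LSS, PMVK, MSMO1 and SCD upward and ABCA1 and ACSL1 downward. Under compound 32 they were INSIG2, ACACB, STARD4, ABCG1, ABCA1, IDI1, HMGCS1 and MSMO1 upward and ELOVL6 and ACACA downward. These calls are edgeR quasi-likelihood tests at a Benjamini-Hochberg adjusted p under 0.05 over all genes, and the ± after a log2 fold change is its standard error.

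Over all 42 members 20 were higher and 5 lower under sunitinib, where 20.3% of all genes tested were called higher and 19.9% lower, 40.2% in either direction. Under compound 32 18 were higher and 2 lower, against 12% and 10.3% of all genes, 22.3% in all. The share of sterol enzymes called higher, 9 of 18 under sunitinib and 10 of 18 under compound 32, exceeded that of all genes called higher. Of the 15 fatty acid genes 9 under sunitinib and 5 under compound 32 were called, in both directions. The median log2 fold change of the sterol enzymes was 0.22 under sunitinib and 0.24 under compound 32, that of the fatty acid branch 0.09 and 0.03, and that of all genes 0.02 under sunitinib and 0 to 2 decimals under compound 32. Without sunitinib replicate 3, 11 sterol enzymes rose and 0 fell under sunitinib and 12 rose and 2 fell under compound 32, against backgrounds of 25.1% higher and 26.3% lower (51.4% in either direction), and 21.6% higher and 20.5% lower (42%). The fatty acid branch then had 8 higher and 3 lower under sunitinib, and 6 higher and 3 lower under compound 32. Upper-quartile factors in place of TMM moved the median of all genes to 0.10 under sunitinib and -0.12 for compound 32 against sunitinib, and values are to be read against that shift. With them 3952 genes were higher and 2316 lower under sunitinib, against 3090 and 3036 with TMM, and for compound 32 against sunitinib 3008 and 4712, against 3664 and 3834. The sterol enzymes called under sunitinib were then 13 higher and 0 lower, and 11 and 0 with library totals as the scaling, and the fatty acid genes 8 higher and 1 lower, and 7 and 1. In a fit of only the 6 libraries compared, the sunitinib calls of SQLE, SREBF1, INSIG2, ACACA, ACACB, ELOVL1 and ELOVL5 were lost (adjusted p from 0.0502 to 0.0894). Under compound 32 the fit of 6 libraries, which leaves out all sunitinib libraries, added 11 calls among the 42 and lost none. Over all genes the fits of 6 libraries called 5022 under sunitinib, against 6126 with all 9. Under compound 32 they called 6372, against 3401 with all 9. RNA from a whole culture cannot tell a lower level in each cell from fewer cells that express a gene.

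**Figure D1:**
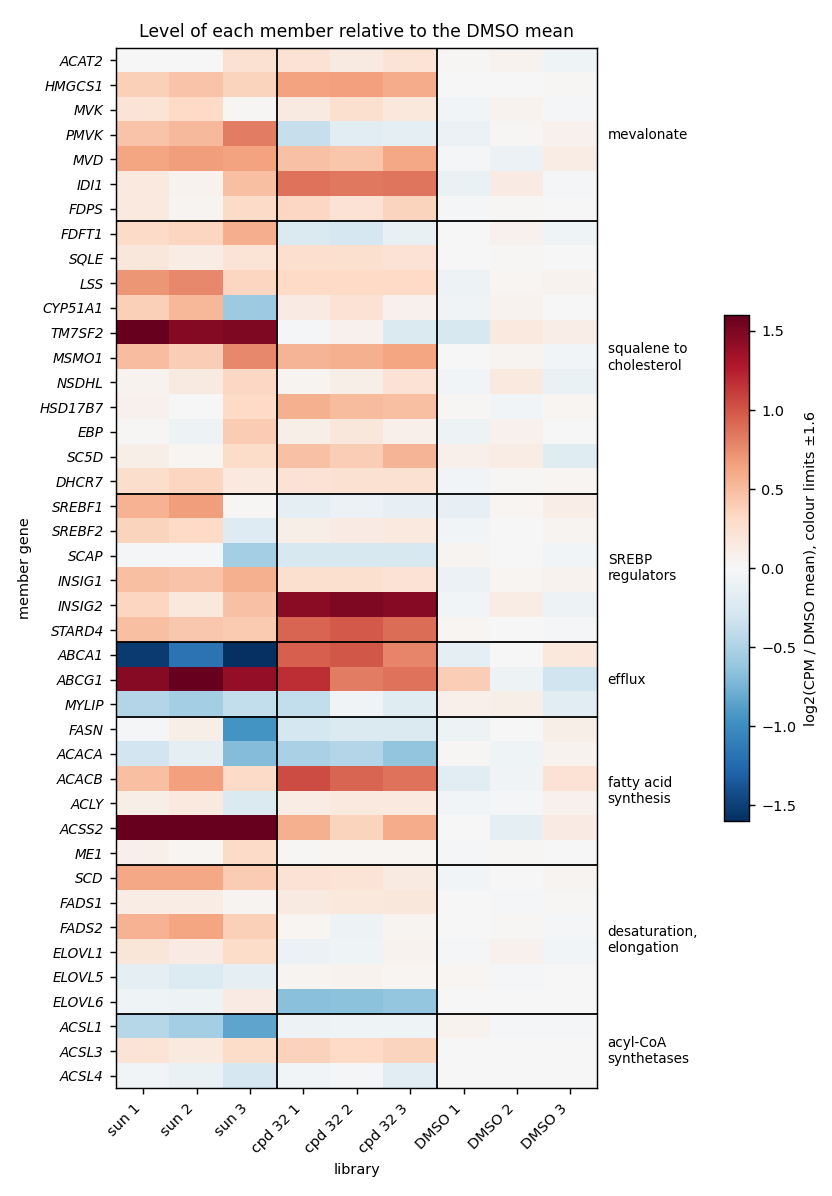
Colour gives the log2 ratio of each member's CPM to its mean in DMSO cells, for 9 libraries (columns; sun, sunitinib; cpd 32, compound 32) and 42 genes (rows) grouped by role. Rows of the sterol blocks are mostly warm in all 6 treated libraries, ABCA1 is blue in the 3 sunitinib and red in the 3 compound 32 libraries, and FASN and CYP51A1 are lowest in sunitinib replicate 3.

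In the mevalonate part of the pathway 3 of 7 genes rose under sunitinib, HMGCS1, PMVK and MVD, and 4 rose under compound 32, HMGCS1, MVD, IDI1 and FDPS. HMGCS1, the synthase that makes HMG-CoA, had 145, 153 and 143 CPM in sunitinib cells, 174, 175 and 168 CPM in compound 32 cells and 111, 112 and 113 CPM in DMSO cells. The 3 groups did not overlap, and its level was highest with compound 32 (log2 fold change 0.63 ± 0.06, adjusted p = 2.16e-05) and intermediate with sunitinib (0.40 ± 0.06, adjusted p = 0.000261, or 0.41 without sunitinib replicate 3). IDI1, which isomerizes isopentenyl diphosphate, had 130.4, 121 and 163 CPM in sunitinib cells, 214, 209.6 and 212 CPM in compound 32 cells and 108, 128 and 115 CPM in DMSO cells. All 3 compound 32 values lay above every other library, a 1.81-fold rise against DMSO (0.85 ± 0.10, adjusted p = 0.00018), whereas the sunitinib and DMSO ranges overlapped (0.24 ± 0.10, adjusted p = 0.0831). Sunitinib replicate 3 was the highest of its group for IDI1, and the value without it was 0.10 ± 0.05, adjusted p = 0.0942. IDI1 was called higher under sunitinib with upper-quartile factors or library totals as the scaling, and without sunitinib replicate 2 (0.32, adjusted p = 0.0274).

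MVD, the decarboxylase that yields isopentenyl diphosphate, had 64.5, 66.4 and 65.3 CPM in sunitinib cells, 58.1, 56.9 and 64.3 CPM in compound 32 cells and 41.1, 39.2 and 45.3 CPM in DMSO cells. Every treated library exceeded every DMSO library, with rises of 0.64 ± 0.08, adjusted p = 6.13e-05 (0.64 without sunitinib replicate 3) under sunitinib and 0.51 ± 0.08, adjusted p = 0.000724 under compound 32. PMVK, the phosphomevalonate kinase, had 23.7, 24.7 and 30.4 CPM in sunitinib cells, 13.4, 15.3 and 15.5 CPM in compound 32 cells and 16.3, 17.6 and 18.1 CPM in DMSO cells. It was higher in all sunitinib libraries (0.60 ± 0.11, adjusted p = 0.00137, or 0.48 without sunitinib replicate 3) and its compound 32 libraries were all below the DMSO ones, at -0.23 ± 0.12, adjusted p = 0.182, not called with all 9 libraries but called lower without sunitinib replicate 3 (-0.23 ± 0.09, adjusted p = 0.0443). FDPS, MVK and ACAT2 had smaller differences. FDPS, farnesyl diphosphate synthase, had 108, 99.8 and 119 CPM in sunitinib cells, 122, 114 and 124 CPM in compound 32 cells and 95.4, 98 and 96.8 CPM in DMSO cells, and rose under compound 32 (0.31 ± 0.07, adjusted p = 0.0108), a call lost without DMSO replicate 1 (adjusted p = 0.0521) or compound 32 replicate 3 (adjusted p = 0.0538). Under sunitinib it was at 0.17 ± 0.07, adjusted p = 0.0834 (0.10 without sunitinib replicate 3), and was called with upper-quartile factors or library totals as the scaling, and without sunitinib replicate 2 (0.23, adjusted p = 0.0324). Some reads of FDPS could belong to RUSC1-AS1 on the other strand, which shares 693 exon bases at a mean of 8.1 CPM. MVK, mevalonate kinase, had 41.4, 44.4 and 36.1 CPM in sunitinib cells, 39.2, 42.5 and 39.9 CPM in compound 32 cells and 34.6, 37.1 and 35.1 CPM in DMSO cells, with values of 0.19 ± 0.09, adjusted p = 0.0974 under sunitinib and 0.19 ± 0.09, adjusted p = 0.149 under compound 32. Without sunitinib replicate 3 it was called higher under both, at 0.26 ± 0.07, adjusted p = 0.00149 and 0.19 ± 0.07, adjusted p = 0.0163, and with upper-quartile factors under sunitinib (0.27, adjusted p = 0.0239). It shares 306 exon bases with MMAB on the other strand, whose own value under sunitinib was 0.72 ± 0.08, so that the 2 genes cannot be told apart there without strand. ACAT2, the cytosolic thiolase that joins acetyl-CoA units, had 84.4, 85.3 and 101 CPM in sunitinib cells, 99.5, 93.5 and 98.9 CPM in compound 32 cells and 85.9, 88 and 80.8 CPM in DMSO cells. It was not called with all 9 libraries (under sunitinib 0.09 ± 0.08, adjusted p = 0.41, or -0.0 without sunitinib replicate 3, and under compound 32 0.20 ± 0.08, adjusted p = 0.0982). It was called higher under compound 32 without sunitinib replicate 3 (0.20 ± 0.05, adjusted p = 0.000615) and in the fit of only the 6 libraries compared (0.20, adjusted p = 0.00103), and higher with compound 32 than with sunitinib without that replicate (0.20 ± 0.05, adjusted p = 0.00104). It shares 397 exon bases with the abundant TCP1, at a mean of 514 CPM, on the other strand.

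Among the 11 enzymes from squalene to cholesterol 6 rose under sunitinib and 6 under compound 32, and none was called lower with all 9 libraries. TM7SF2, a reductase of the double bond at carbon 14 of the sterol ring, rose only under sunitinib among the calls, 2.95-fold against DMSO. It had 14.1, 11.6 and 11.8 CPM in sunitinib cells, 4.14, 4.38 and 3.59 CPM in compound 32 cells and 3.5, 4.68 and 4.5 CPM in DMSO cells. All sunitinib libraries lay far above the rest (1.56 ± 0.15, adjusted p = 1.18e-05, or 1.6 without sunitinib replicate 3), and compound 32 and DMSO overlapped (-0.07 ± 0.17, adjusted p = 0.81). TM7SF2 shares 16 exon bases with VPS51 on the same strand, which was at -0.20 ± 0.12 under sunitinib. The difference between the compounds was itself tested, at -1.63 ± 0.15, adjusted p = 4.91e-06. LSS, which closes the ring to lanosterol, had 232, 242 and 181 CPM in sunitinib cells, 177, 177 and 178 CPM in compound 32 cells and 134, 145 and 147 CPM in DMSO cells. Each treated library exceeded each DMSO library, and sunitinib replicates 1 and 2 were above replicate 3 (sunitinib 0.62 ± 0.10, adjusted p = 0.000429, and 0.73 ± 0.04 without replicate 3). Under compound 32 LSS rose by 0.32 ± 0.10, adjusted p = 0.0352, a call that was lost when any 1 of the DMSO or compound 32 libraries was left out (adjusted p from 0.0833 to 0.142). LSS shares 122 exon bases with the antisense gene AP001469.1, which averaged 1.5 CPM over the whole gene. MSMO1, the C-4 methyl sterol oxidase, had 142, 132 and 171 CPM in sunitinib cells, 147, 149.7 and 155 CPM in compound 32 cells and 101, 104 and 97.6 CPM in DMSO cells, and rose with both compounds (under sunitinib 0.56 ± 0.09, adjusted p = 0.000436, or 0.44 without sunitinib replicate 3, and under compound 32 0.58 ± 0.09, adjusted p = 0.000764), with no overlap with DMSO.

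HSD17B7, a sterol 3-ketoreductase, and SC5D, the C-5 desaturase, rose under compound 32. HSD17B7 had 25.6, 24.2 and 30.4 CPM in sunitinib cells, 36.1, 34.7 and 34.1 CPM in compound 32 cells and 24.7, 23.6 and 24.9 CPM in DMSO cells, and its compound 32 libraries were above all others (0.52 ± 0.09, adjusted p = 0.00218), with sunitinib at 0.13 ± 0.09, adjusted p = 0.285 (0.03 without sunitinib replicate 3). SC5D had 50.9, 48.8 and 58.8 CPM in sunitinib cells, 65.8, 62.6 and 69.7 CPM in compound 32 cells and 50.4, 51.9 and 41.6 CPM in DMSO cells, again with the compound 32 libraries on top (0.46 ± 0.10, adjusted p = 0.00655) and sunitinib within reach of DMSO (0.14 ± 0.10, adjusted p = 0.293, or 0.05 without sunitinib replicate 3). DHCR7, the last reductase before cholesterol, had 209, 218 and 191 CPM in sunitinib cells, 202, 202 and 202 CPM in compound 32 cells and 166, 173 and 175 CPM in DMSO cells. Its treated libraries all exceeded its DMSO libraries (under sunitinib 0.27 ± 0.06, adjusted p = 0.00663, or 0.31 without sunitinib replicate 3, and under compound 32 0.24 ± 0.06, adjusted p = 0.0206), but the compound 32 call was lost when any 1 DMSO or compound 32 library was left out (adjusted p from 0.0632 to 0.103). SQLE, squalene epoxidase, had 329, 317 and 337 CPM in sunitinib cells, 350.2, 346 and 342 CPM in compound 32 cells and 290.1, 293 and 288 CPM in DMSO cells. These were small rises without overlap (under sunitinib 0.17 ± 0.06, adjusted p = 0.0335, or 0.15 without sunitinib replicate 3, and under compound 32 0.25 ± 0.06, adjusted p = 0.00961). The sunitinib call was lost without any 1 library other than sunitinib replicate 2 or 3 (adjusted p from 0.0624 to 0.132), and the compound 32 call without DMSO replicate 1 or 3 or compound 32 replicate 1 (adjusted p from 0.0501 to 0.0527).

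FDFT1, which joins farnesyl diphosphate into squalene, rose under sunitinib. It had 328, 335 and 396 CPM in sunitinib cells, 226, 221 and 244 CPM in compound 32 cells and 265, 277 and 254 CPM in DMSO cells. All sunitinib libraries were above, and all compound 32 libraries below, the DMSO range. The rise under sunitinib was called (0.41 ± 0.08, adjusted p = 0.00202, or 0.32 without sunitinib replicate 3), while the value under compound 32, -0.20 ± 0.08, adjusted p = 0.099, was called without sunitinib replicate 3 (-0.20 ± 0.04, adjusted p = 2.25e-05). CYP51A1, the lanosterol demethylase, had 14.1, 15.6 and 7.22 CPM in sunitinib cells, 11.9, 12.7 and 11.4 CPM in compound 32 cells and 10.4, 11.2 and 10.9 CPM in DMSO cells. In sunitinib cells replicate 3 was the lowest of all 9 libraries and replicates 1 and 2 the highest, so that the value was 0.19 ± 0.22, adjusted p = 0.51 with it and 0.45 ± 0.12, adjusted p = 0.000862 without it. Compound 32 gave 0.15 ± 0.22, adjusted p = 0.686. NSDHL and EBP, a decarboxylating dehydrogenase and a sterol isomerase, were called in none of the 3 comparisons with or without that library under TMM scaling. With upper-quartile factors NSDHL was called higher under sunitinib (0.26, adjusted p = 0.0471). NSDHL ran from 44.6 to 60.6 CPM and EBP from 26 to 36.5 CPM over the 9 libraries, and sunitinib replicate 3 was the highest for both.

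**Figure D2:**
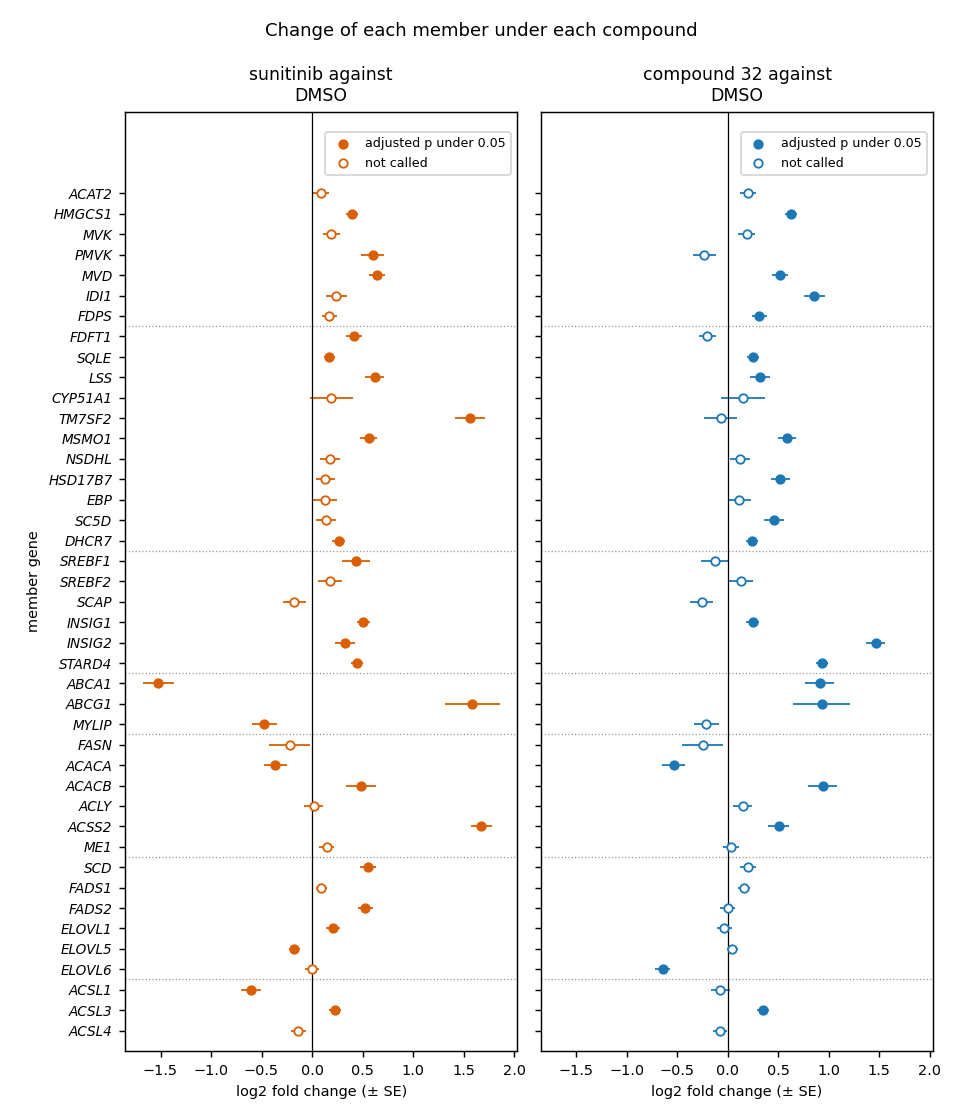
Points give the log2 fold change of each of the 42 members with its standard error as a bar, for sunitinib (left) and compound 32 (right) against DMSO; filled points are called, open points are not. Both panels share the 3 DMSO libraries. TM7SF2 and ACSS2 stand out to the right under sunitinib and INSIG2 under compound 32, and ABCA1 lies on opposite sides of 0.

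Of the 6 regulators and carriers 4 rose under sunitinib, SREBF1, INSIG1, INSIG2 and STARD4, and 3 under compound 32, INSIG1, INSIG2 and STARD4. The INSIG genes, whose products retain SCAP in the endoplasmic reticulum, responded unequally to the compounds. INSIG2 had 18.7, 16.6 and 20.4 CPM in sunitinib cells, 40.1, 41.6 and 40.5 CPM in compound 32 cells and 14.3, 16.1 and 14 CPM in DMSO cells. Its compound 32 libraries were at 40.1 CPM or more and all others at most 20.4 CPM, a 2.76-fold rise against DMSO (1.46 ± 0.10, adjusted p = 1.66e-06). Sunitinib raised INSIG2 by 0.33 ± 0.10, adjusted p = 0.0198 (0.26 without sunitinib replicate 3), a call lost without DMSO replicate 1 or 3 (adjusted p from 0.0779 to 0.0871). INSIG1, itself a strong target of SREBP, had 191, 188 and 203 CPM in sunitinib cells, 164, 162 and 160.1 CPM in compound 32 cells and 128, 140.0 and 141 CPM in DMSO cells. Here the order was reversed, with sunitinib highest (0.51 ± 0.06, adjusted p = 8.76e-05, or 0.47 without sunitinib replicate 3), compound 32 next (0.25 ± 0.06, adjusted p = 0.0166) and DMSO lowest, with no overlap. The compound 32 call was lost without DMSO replicate 1 or any 1 compound 32 library (adjusted p from 0.0518 to 0.0981). Compound 32 and sunitinib differed in both genes, by 1.13 ± 0.09, adjusted p = 2.19e-06 for INSIG2 and by -0.26 ± 0.06, adjusted p = 0.00509 for INSIG1.

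STARD4, a soluble carrier that moves cholesterol between membranes, had 133, 128 and 127 CPM in sunitinib cells, 181, 188 and 177 CPM in compound 32 cells and 97.2, 94.6 and 94 CPM in DMSO cells. The 3 groups were fully apart, with compound 32 (0.94 ± 0.06, adjusted p = 1.19e-06) above sunitinib (0.44 ± 0.06, adjusted p = 0.000127, or 0.46 without sunitinib replicate 3). Its antisense neighbour STARD4-AS1 averaged 1.92 CPM. SREBF1 had 175, 189 and 121 CPM in sunitinib cells, 106, 112 and 109 CPM in compound 32 cells and 108, 121 and 129 CPM in DMSO cells. Sunitinib replicates 1 and 2 were above all DMSO libraries, and replicate 3 was within the DMSO range. The rise was 0.43 ± 0.13, adjusted p = 0.0236, and 0.60 ± 0.05, adjusted p = 5.34e-14 without replicate 3. It was not called without DMSO replicate 1 or 2 or without sunitinib replicate 1 or 2 (adjusted p from 0.0642 to 0.104). Under compound 32 SREBF1 was at -0.13 ± 0.14, adjusted p = 0.546, and was called lower without sunitinib replicate 3 (-0.13 ± 0.05, adjusted p = 0.0301). SREBF1 shares 556 exon bases with RAI1 on the other strand, which had -0.55 ± 0.20 under sunitinib, and the table does not separate the transcripts of the SREBF1 isoforms.

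SREBF2 had 293, 286 and 199 CPM in sunitinib cells, 245, 251 and 254 CPM in compound 32 cells and 222, 229 and 235 CPM in DMSO cells. In sunitinib cells replicates 1 and 2 were the highest of the 9 libraries and replicate 3 the lowest, which gave 0.18 ± 0.12, adjusted p = 0.246 with replicate 3 and 0.34 ± 0.04, adjusted p = 3.13e-10 without it. SREBF2-AS1, on the other strand, averaged 6.67 CPM. Compound 32 libraries were all above DMSO, by a small amount (0.13 ± 0.12, adjusted p = 0.496; 0.13 ± 0.04, adjusted p = 0.00336 without sunitinib replicate 3). SCAP had 147, 145 and 102 CPM in sunitinib cells, 125, 124 and 124 CPM in compound 32 cells and 153, 149 and 144 CPM in DMSO cells. Sunitinib replicate 3 was again the lowest, and the value was -0.18 ± 0.11, adjusted p = 0.234 with it and -0.03 ± 0.05, adjusted p = 0.642 without it. All compound 32 values of SCAP were below all DMSO values, at -0.26 ± 0.11, adjusted p = 0.128, called lower without sunitinib replicate 3 (-0.26 ± 0.04, adjusted p = 9.45e-07). The edgeR fit of all 9 libraries with no filter on low counts also called SCAP lower under compound 32 (-0.27, adjusted p = 0.018).

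**Figure D3:**
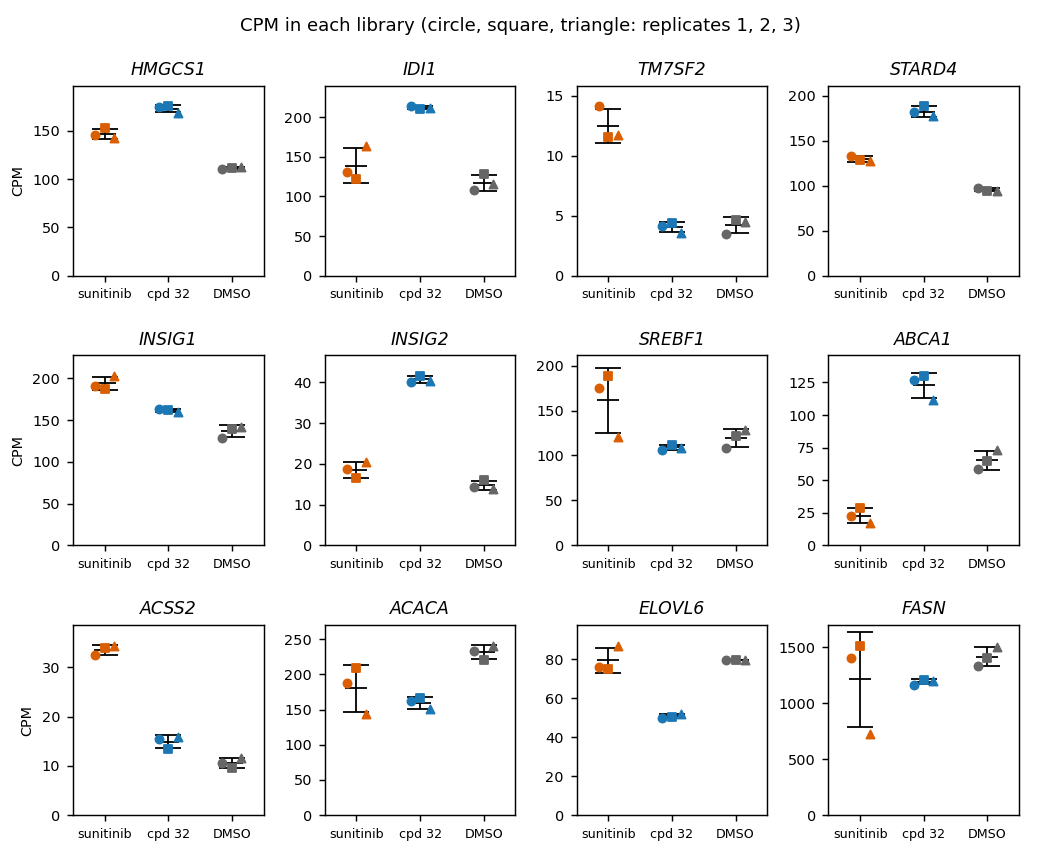
Each panel plots the CPM of 1 gene in each library on an axis from 0, with the mean and SD of each group in black (n = 3 each; cpd 32, compound 32). INSIG2 and IDI1 are highest with compound 32, TM7SF2 and ACSS2 with sunitinib, ABCA1 is low with sunitinib and high with compound 32, and FASN and SREBF1 are widely spread in sunitinib cells through replicate 3 (triangle).

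The sterol exporter ABCA1 moved in opposite directions under the 2 compounds. It had 22.4, 28.8 and 17.1 CPM in sunitinib cells, 127, 130.1 and 112 CPM in compound 32 cells and 58.5, 64.6 and 73.1 CPM in DMSO cells. No library of any group overlapped another group, and sunitinib cells held 22.8 ± 5.84 CPM and compound 32 cells 123 ± 9.85 CPM, against 65.4 ± 7.32 CPM in DMSO cells (SD, n = 3 each). The fall under sunitinib was -1.52 ± 0.15, adjusted p = 1.99e-05, and -1.36 ± 0.14, adjusted p = 2.8e-05 without replicate 3, and the rise under compound 32 was 0.91 ± 0.14, adjusted p = 0.00116. Against sunitinib, compound 32 was 5.39-fold higher (2.43 ± 0.16, adjusted p = 3.24e-07), the largest difference between the compounds among the 42 genes. ABCG1, a second exporter, did not share that pattern. It was scarce, with 2.43, 3.41 and 2.34 CPM in sunitinib cells, 2.00, 1.56 and 1.61 CPM in compound 32 cells and 1.17, 0.839 and 0.708 CPM in DMSO cells. Sunitinib raised it by 1.58 ± 0.27, adjusted p = 0.00076 (1.68 without sunitinib replicate 3). The compound 32 value, 0.93 ± 0.29, adjusted p = 0.0377, lost its call without DMSO replicate 2 or 3 or any 1 compound 32 library (adjusted p from 0.0685 to 0.133). MYLIP, a ubiquitin ligase that marks lipoprotein receptors for degradation, had 7.73, 7.32 and 8.13 CPM in sunitinib cells, 8.15, 10.3 and 9.32 CPM in compound 32 cells and 11.3, 11.4 and 9.46 CPM in DMSO cells. It was below the DMSO range in all sunitinib libraries (-0.47 ± 0.13, adjusted p = 0.0112, or -0.51 without sunitinib replicate 3), and compound 32 overlapped DMSO (-0.21 ± 0.12, adjusted p = 0.259). Thus 2 of these 3 LXR targets were lower and 1 higher under sunitinib. ABCA1 (ENSG00000165029) lies on chromosome 9 from 104781002 to 104928237 and INSIG2 (ENSG00000125629) on chromosome 2 from 118088452 to 118110997 (GRCh38).

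In fatty acid synthesis the carboxylases that make malonyl-CoA moved apart, ACACA downward and ACACB upward with both compounds. ACACA, the cytosolic enzyme, had 188, 209 and 143 CPM in sunitinib cells, 162, 167 and 150.1 CPM in compound 32 cells and 234, 221 and 241 CPM in DMSO cells. Every treated library was below every DMSO library, with -0.36 ± 0.11, adjusted p = 0.0244 under sunitinib and -0.54 ± 0.11, adjusted p = 0.00621 under compound 32. Without sunitinib replicate 3, the lowest library, the sunitinib value was -0.23 ± 0.05, adjusted p = 9.09e-05, and without DMSO replicate 1 or 3 it was not called (adjusted p from 0.066 to 0.0771). ACACB, the isoform at the mitochondrial surface whose malonyl-CoA restrains fatty acid oxidation, had 7.41, 8.37 and 6.57 CPM in sunitinib cells, 10.9, 10.1 and 9.68 CPM in compound 32 cells and 4.67, 5.1 and 6.24 CPM in DMSO cells. It was the scarcer of the pair, with every treated library above DMSO (under sunitinib 0.48 ± 0.15, adjusted p = 0.021, or 0.56 without sunitinib replicate 3, and under compound 32 0.94 ± 0.14, adjusted p = 0.000824). The sunitinib call was lost without DMSO replicate 1 or 2 or sunitinib replicate 2 (adjusted p from 0.0754 to 0.0929). ACSS2, which makes acetyl-CoA from acetate, had 32.4, 33.9 and 34.4 CPM in sunitinib cells, 15.5, 13.4 and 15.8 CPM in compound 32 cells and 10.6, 9.47 and 11.5 CPM in DMSO cells. Sunitinib raised it 3.19-fold (1.67 ± 0.10, adjusted p = 4.1e-07), the largest rise of the 42 genes in either comparison with DMSO when all 9 libraries were used, and compound 32 raised it 1.42-fold (0.50 ± 0.11, adjusted p = 0.0057). The groups did not overlap, and its value without sunitinib replicate 3 was 1.66 ± 0.10, just under that of ABCG1 (1.68 ± 0.32).

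FASN, the synthase that builds palmitate, had 1399.7, 1514 and 728 CPM in sunitinib cells, 1163, 1206 and 1201 CPM in compound 32 cells and 1335, 1405 and 1505 CPM in DMSO cells. Sunitinib replicates 1 and 2 were in or just above the DMSO range, and replicate 3 had a far lower level, with a log2 ratio of -1.0 to their mean. No change was called under sunitinib with replicate 3 (-0.22 ± 0.20, adjusted p = 0.417) or without it (0.04 ± 0.04, adjusted p = 0.403). All compound 32 libraries were below all DMSO libraries, at -0.25 ± 0.20, adjusted p = 0.436, and FASN was called lower without sunitinib replicate 3 (-0.25 ± 0.04, adjusted p = 1.82e-07). ACLY, which splits citrate into cytosolic acetyl-CoA, had 694, 722 and 551 CPM in sunitinib cells, 707, 722 and 724 CPM in compound 32 cells and 628, 641 and 678 CPM in DMSO cells. Its values were 0.02 ± 0.09, adjusted p = 0.913 under sunitinib and 0.15 ± 0.09, adjusted p = 0.306 under compound 32. Without sunitinib replicate 3, its lowest library, both were called higher, at 0.12 ± 0.04, adjusted p = 0.00365 and 0.15 ± 0.03, adjusted p = 0.000195. ME1, the malic enzyme that yields NADPH, was called in no comparison with or without that library under TMM scaling, with 44.2 to 55.9 CPM over the 9 libraries, but higher under sunitinib with upper-quartile factors (0.23, adjusted p = 0.0404) or library totals (0.20, adjusted p = 0.0413).

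Sunitinib raised the desaturase genes SCD and FADS2, and compound 32 lowered the elongase gene ELOVL6. SCD, the stearoyl-CoA desaturase and the most abundant member, had 2272, 2277 and 1963 CPM in sunitinib cells, 1739, 1725 and 1632 CPM in compound 32 cells and 1433, 1477 and 1529 CPM in DMSO cells. All treated libraries exceeded all DMSO libraries, with 0.55 ± 0.08, adjusted p = 0.000203 (0.62 without sunitinib replicate 3) under sunitinib and 0.20 ± 0.08, adjusted p = 0.0895 under compound 32, with the compound 32 value called without sunitinib replicate 3 (0.20 ± 0.03, adjusted p = 2.42e-07). DESeq2 called SCD higher under compound 32 with all 9 libraries as well (0.20, adjusted p = 0.0491). FADS2, the delta-6 desaturase, had 108, 114 and 95.9 CPM in sunitinib cells, 75, 69.5 and 75.6 CPM in compound 32 cells and 73.3, 74.2 and 72.7 CPM in DMSO cells. It rose under sunitinib (0.53 ± 0.07, adjusted p = 0.000197, or 0.59 without sunitinib replicate 3), and the compound 32 range enclosed that of DMSO (adjusted p = 0.995, interval of 95% from -0.16 to 0.16). FADS1, the delta-5 desaturase, had 318, 319 and 304 CPM in sunitinib cells, 325, 329.5 and 332 CPM in compound 32 cells and 293, 291 and 298 CPM in DMSO cells. Its small differences were not called in the edgeR fit of all 9 libraries with TMM scaling and were called without sunitinib replicate 3 (0.11 ± 0.04, adjusted p = 0.0119 under sunitinib and 0.16 ± 0.03, adjusted p = 0.000112 under compound 32). With all 9 libraries FADS1 was called under sunitinib with upper-quartile factors (0.18, adjusted p = 0.0286) and under compound 32 by DESeq2 (0.16, adjusted p = 0.0157). FADS1 and FADS2 share 490 exon bases on opposite strands, and FADS2 shares 49 with FEN1, a replication gene at -1.74 ± 0.08 under sunitinib.

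ELOVL6, which lengthens the palmitate made by FASN, had 76, 75.3 and 87.1 CPM in sunitinib cells, 50.1, 50.6 and 51.9 CPM in compound 32 cells and 79.6, 79.9 and 79.5 CPM in DMSO cells. Compound 32 lowered it well below the other 6 libraries (-0.65 ± 0.07, adjusted p = 8.15e-05). Sunitinib libraries lay on both sides of DMSO (adjusted p = 0.967, interval of 95% from -0.16 to 0.15), and the compounds differed by -0.64 ± 0.07, adjusted p = 2.07e-05. ELOVL1, an elongase of very long chains, had 248, 237 and 265 CPM in sunitinib cells, 203, 207 and 225 CPM in compound 32 cells and 213, 228 and 210.3 CPM in DMSO cells. It was slightly higher under sunitinib (0.20 ± 0.07, adjusted p = 0.0365, or 0.16 without sunitinib replicate 3), a call lost without any 1 DMSO library, sunitinib replicate 1 or compound 32 replicate 1 or 2 (adjusted p from 0.0537 to 0.148). ELOVL5, an elongase of polyunsaturated chains, had 203, 193 and 202 CPM in sunitinib cells, 231, 234 and 229 CPM in compound 32 cells and 229.7, 219 and 224 CPM in DMSO cells. It was slightly lower under sunitinib (-0.17 ± 0.06, adjusted p = 0.0303, or -0.18 without sunitinib replicate 3), a call lost without any 1 DMSO library or sunitinib replicate 2 (adjusted p from 0.0508 to 0.0995) and with upper-quartile factors or library totals as the scaling (-0.09, adjusted p = 0.225, and -0.12, adjusted p = 0.137).

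Of the acyl-CoA synthetases, which activate fatty acids for use, ACSL1 fell and ACSL3 rose under sunitinib. ACSL1 had 24.3, 22.8 and 18.5 CPM in sunitinib cells, 31.4, 31.7 and 31.8 CPM in compound 32 cells and 34.5, 32.6 and 32.9 CPM in DMSO cells. All sunitinib libraries were below DMSO (-0.60 ± 0.10, adjusted p = 0.000503; -0.50 ± 0.08 without replicate 3), and compound 32 libraries lay just under the DMSO range (-0.07 ± 0.10, adjusted p = 0.635). ACSL3, the isoform of the endoplasmic reticulum and lipid droplets, had 196, 188 and 205 CPM in sunitinib cells, 216, 209 and 216 CPM in compound 32 cells and 167, 168 and 169 CPM in DMSO cells. It rose with both compounds (under sunitinib 0.22 ± 0.06, adjusted p = 0.0105, or 0.19 without sunitinib replicate 3, and under compound 32 0.35 ± 0.06, adjusted p = 0.00166), with the sunitinib call lost without DMSO replicate 1 (adjusted p = 0.052). ACSL4, which prefers arachidonate, was called in none of the comparisons with or without sunitinib replicate 3, and ran from 207 to 250.2 CPM.

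The branches as wholes were summed in each library as TMM-scaled CPM. The scaling factor cancels in the ratio of the sums, but not in the sums themselves. The 18 sterol enzymes summed to 2019.8, 2018 and 2139 CPM in sunitinib cells, 2018, 2000.2 and 2048 CPM in compound 32 cells and 1609.5, 1686 and 1620.2 CPM in DMSO cells. Every treated library was above every DMSO library. The 15 fatty acid genes summed to 6054, 6190.0 and 4867 CPM in sunitinib cells, 5217, 5266 and 5163 CPM in compound 32 cells and 5029, 5145 and 5351 CPM in DMSO cells. Sunitinib replicates 1 and 2 were the highest and replicate 3 the lowest of the 9, and compound 32 overlapped DMSO. The sterol sum over the fatty acid sum was 0.334, 0.326 and 0.440 in sunitinib cells, 0.387, 0.380 and 0.397 in compound 32 cells and 0.320, 0.328 and 0.303 in DMSO cells. With compound 32 the ratio was above DMSO in all libraries, whereas sunitinib replicates 1 and 2 were near the DMSO range and replicate 3 was the highest of all. FASN and SCD make up most of the fatty acid sum. Without them the ratio was 0.848, 0.841 and 0.983 in sunitinib cells, 0.872, 0.857 and 0.879 in compound 32 cells and 0.712, 0.745 and 0.699 in DMSO cells, with every treated library above every DMSO library.

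A mean over genes gives each member equal weight. The mean log2 difference of the sterol enzymes from their DMSO mean was 0.35, 0.34 and 0.40 in sunitinib replicates 1 to 3, 0.26, 0.28 and 0.29 in those of compound 32 and -0.04, 0.05 and -0.01 in those of DMSO. For the fatty acid branch it was 0.20, 0.21 and 0.05 with sunitinib, 0.06, 0.04 and 0.05 with compound 32 and -0.02, -0.02 and 0.04 with DMSO. The sterol mean was thus above the fatty acid mean in each of the 6 treated libraries. The sunitinib means lean on single genes. ACSS2 was at 1.63, 1.69 and 1.71 in sunitinib replicates 1 to 3, the largest values of the fatty acid branch. TM7SF2 was at 1.75, 1.47 and 1.49, the largest of the sterol enzymes. Since the members were chosen with earlier results known, no test was made on these sums and means.

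**Figure D4:**
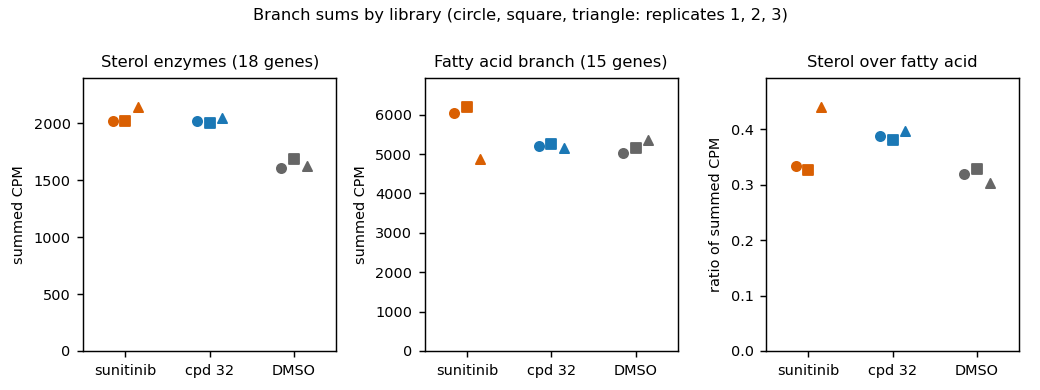
Points give, for each library, the summed CPM of the 18 sterol enzymes (left), of the 15 fatty acid genes (middle) and the ratio of the sums (right), on axes from 0. The sterol sum is above DMSO in all 6 treated libraries, and the fatty acid sum and the ratio of sunitinib replicate 3 (triangle) lie apart from sunitinib replicates 1 and 2.

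Compound 32 and sunitinib were compared directly at 24 h, with the doses unknown, so that the values set these libraries side by side. By edgeR at an adjusted p under 0.05, of the 42 members 10 were higher and 12 lower with compound 32 than with sunitinib, against 24.1% and 25.2% of all genes, 49.2% in all. Without sunitinib replicate 3 these were 15 and 17, against 29.7% and 29% (58.7% in all). All 22 calls were also made without it, and the second value in each bracket leaves it out. Of the 18 sterol enzymes 4 were higher and 4 lower with all 9 libraries, 8 and 5 without sunitinib replicate 3, and 2 and 5 with upper-quartile factors. IDI1 (0.61 ± 0.10 and 0.75), HSD17B7 (0.39 ± 0.09 and 0.49), SC5D (0.32 ± 0.10 and 0.41) and HMGCS1 (0.23 ± 0.06 and 0.22) were higher with compound 32, and TM7SF2 (-1.63 ± 0.15 and -1.67), PMVK (-0.83 ± 0.11 and -0.71), FDFT1 (-0.62 ± 0.08 and -0.52) and LSS (-0.30 ± 0.10 and -0.41) lower. SC5D lost its call without sunitinib replicate 1 or 2 or compound 32 replicate 3 (adjusted p from 0.0528 to 0.0662), and LSS without sunitinib replicate 1 or 2 or any 1 compound 32 library (adjusted p from 0.0677 to 0.0847). HMGCS1 lost its call with upper-quartile factors (0.15, adjusted p = 0.052). Among regulators STARD4 (0.49 ± 0.06 and 0.48) and INSIG2 (1.13 ± 0.09 and 1.21) were higher, and SREBF1 (-0.57 ± 0.13 and -0.73) and INSIG1 (-0.26 ± 0.06 and -0.22) lower. In the fatty acid branch ACSS2 (-1.17 ± 0.10 and -1.15), ELOVL6 (-0.64 ± 0.07 and -0.57), FADS2 (-0.53 ± 0.07 and -0.59), SCD (-0.35 ± 0.08 and -0.42) and ELOVL1 (-0.24 ± 0.07 and -0.19) were lower with compound 32, and ACSL1 (0.53 ± 0.10 and 0.43), ACACB (0.46 ± 0.14 and 0.38) and ELOVL5 (0.22 ± 0.06 and 0.23) higher. The calls of ELOVL1 without compound 32 replicate 1 or 2 (adjusted p from 0.0656 to 0.0733), of ACACB without compound 32 replicate 1 (adjusted p = 0.0628) and of ELOVL5 with upper-quartile factors (0.13, adjusted p = 0.0754) were lost. ABCG1, lower with compound 32 at -0.66 ± 0.25, adjusted p = 0.0434, was called in 2 of the 9 fits that each left out 1 library, those without DMSO replicate 1 and without sunitinib replicate 3. A further 10 members were called without sunitinib replicate 3. ACAT2 (0.20 ± 0.05), FDPS (0.21 ± 0.05), ACSL3 (0.16 ± 0.04), MSMO1 (0.14 ± 0.05) and SQLE (0.10 ± 0.04) were then higher with compound 32. ACACA (-0.31 ± 0.05), CYP51A1 (-0.30 ± 0.11), FASN (-0.29 ± 0.04), SCAP (-0.23 ± 0.05) and SREBF2 (-0.21 ± 0.04) were then lower. Their adjusted p ran from 3.06e-08 to 0.0199 in that fit. With all 9 libraries DESeq2 also called ACSL3 higher with compound 32 (0.15, adjusted p = 0.0425). Of genes called neither with nor without that library, the interval of 95% of the log2 difference from all 9 libraries was -0.17 to 0.11 for DHCR7 and -0.29 to 0.04 for MVD, which was called lower with upper-quartile factors (-0.22, adjusted p = 0.03).

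Levels can be compared between genes only per length, here as TPM from the gene lengths given in the table. On that scale SCD led the 42 genes, with 1567 ± 292 TPM in sunitinib cells, 1227 ± 53.2 TPM in compound 32 cells and 1090.2 ± 37.6 TPM in DMSO cells (SD, n = 3 each). In DMSO cells FASN (597 ± 37 TPM) and ACLY (491 ± 21.6 TPM) came next, followed by ELOVL1 (342 ± 10.2 TPM). Next came the sterol enzyme SQLE, at 267 ± 1.72 TPM, ELOVL5, at 232 ± 8.32 TPM, FDFT1 (201 ± 6.87 TPM) and DHCR7 (163 ± 4.24 TPM). INSIG1 exceeded INSIG2 in each group, at 204 ± 14.9 and 18 ± 1.33 TPM in sunitinib cells, 172 ± 3.38 and 40.0 ± 1.07 TPM in compound 32 cells and 148 ± 7.03 and 14.8 ± 0.943 TPM in DMSO cells. ACACA was likewise above ACACB, at 70.4 ± 3.94 and 1.45 ± 0.226 TPM in DMSO cells. The lowest level was that of ABCG1, at 0.584 ± 0.157 TPM in DMSO cells, with ACACB next and then TM7SF2 (4.9 ± 0.693 TPM).

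Sunitinib replicate 3 differed from replicates 1 and 2 by amounts that differed between short and long members. The log2 ratio of its CPM to the mean of the other 2 ran from -1.04 in CYP51A1 and -1.0 in FASN to 0.44 in EBP, with a median of -0.02. SREBF1 (-0.59), ABCA1 (-0.58), SREBF2 (-0.54) and SCAP (-0.52) were also low, and IDI1 (0.38), PMVK (0.33) and MSMO1 (0.32) high. Across the 42 genes, which share the same 3 libraries, this ratio had a Spearman correlation of -0.63 with gene length, and across all 15232 genes of -0.29. Those are descriptions across genes, and the part of RNA quality in the sunitinib values was not tested. All 25 sunitinib calls among the members stood with and without replicate 3, such as those of TM7SF2, ACSS2, INSIG1, STARD4, HMGCS1, MVD and ABCA1. CYP51A1, SREBF2, MVK, ACLY and FADS1 were called without it and not with it under TMM scaling.

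**Figure D5:**
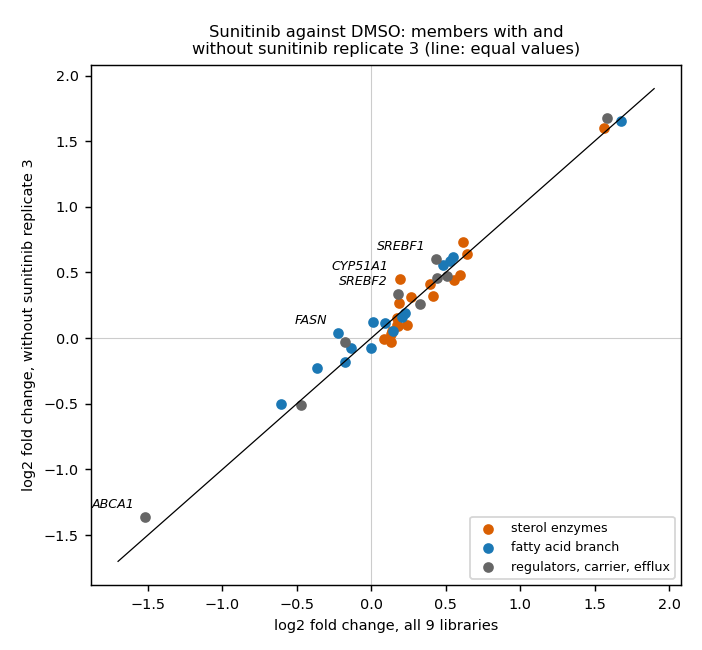
Each point is 1 of the 42 members, with its log2 fold change for sunitinib against DMSO from all 9 libraries (horizontal) and from 8 libraries without sunitinib replicate 3 (vertical); the line marks equal values. Most members lie near the line, and CYP51A1 (0.19 and 0.45) and FASN (-0.22 and 0.04) lie farthest above it.

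Other genes of lipid metabolism were read from 4 lists, with the same edgeR calls over all genes; where a bracket holds a second value, it leaves out sunitinib replicate 3. Their counts stand against 20.3% of all genes higher and 19.9% lower under sunitinib and 12% and 10.3% under compound 32, and, without that replicate, 25.1% and 26.3%, and 21.6% and 20.5%. In that of SREBP maturation and sterol homeostasis, 17 genes, 5 rose and 5 fell under sunitinib, with a median of 0.10, and 2 rose and 3 fell under compound 32, with a median of 0.02. In the fit that leaves out sunitinib replicate 3, 8 rose and 5 fell under sunitinib, and 5 rose and 4 fell under compound 32. SOAT1, which esterifies cholesterol for storage, averaged 74.9 ± 1.41 CPM in sunitinib cells, 123 ± 7.13 CPM in compound 32 cells and 136 ± 2.52 CPM in DMSO cells (SD, n = 3 each). It fell under sunitinib (-0.86 ± 0.06 and -0.88), together with LBR (-0.58 ± 0.06 and -0.58), which carries the same C-14 reductase activity as TM7SF2, and ERLIN1 (-0.49 ± 0.07 and -0.54), which takes part in degrading sterol enzymes. NR1H3, the gene of the LXR alpha receptor, averaged 13.2 ± 0.58 CPM in sunitinib cells, 4.82 ± 1.26 CPM in compound 32 cells and 5.36 ± 0.596 CPM in DMSO cells, and rose under sunitinib (1.30 ± 0.16 and 1.34). Of the LXR targets among the members, ABCG1 and SREBF1 also rose under sunitinib, and ABCA1 and MYLIP fell. Under compound 32 ERLIN2 (-0.35 ± 0.07), the partner of ERLIN1, fell and STARD3 (0.28 ± 0.07), a cholesterol carrier of late endosomes, rose. The compounds differed in NR1H3 (-1.46 ± 0.16 and -1.49, as compound 32 over sunitinib), TMEM97 (0.81 ± 0.13 and 1.02), SOAT1 (0.72 ± 0.06 and 0.74) and ERLIN2 (-0.66 ± 0.07 and -0.68).

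Of 22 further genes of fatty acid synthesis and elongation 19 were measured, with 3 higher and 7 lower under sunitinib and 4 and 1 under compound 32. These counts became 4 and 8 under sunitinib and 4 and 5 under compound 32 without sunitinib replicate 3. With all 9 libraries their medians were 0 to 2 decimals and 0.04. IDH1, a cytosolic source of NADPH, averaged 138 ± 14.2 CPM in sunitinib cells, 73.6 ± 3.1 CPM in compound 32 cells and 80.1 ± 1.53 CPM in DMSO cells, and rose under sunitinib (0.78 ± 0.08 and 0.70), as did FADS3 (0.62 ± 0.07 and 0.63), whereas ELOVL2 (-1.05 ± 0.11 and -1.04), an elongase of polyunsaturated chains, and the dehydratase HACD2 (-0.60 ± 0.07 and -0.56) fell. Under compound 32 ELOVL7 (1.43 ± 0.27), the citrate carrier gene SLC25A1 (0.40 ± 0.07) and HACD3 (0.34 ± 0.07) rose and ME3 (-0.32 ± 0.07) fell. Between the compounds HACD3 (0.84 ± 0.07 and 0.90), ELOVL2 (1.09 ± 0.11 and 1.08) and SCD5 (0.78 ± 0.09 and 0.81) were higher, and IDH1 (-0.91 ± 0.08 and -0.82) lower, with compound 32. In glycerolipid synthesis, 13 genes, 1 rose and 3 fell under sunitinib and 2 rose and 3 fell under compound 32, with medians of 0.10 and 0.05. In the fit without sunitinib replicate 3, 6 rose and 3 fell under sunitinib, and 5 rose and 4 fell under compound 32. LPIN1, a phosphatidate phosphatase, rose with both (0.44 ± 0.07 and 0.51 under sunitinib, 0.31 ± 0.07 under compound 32), and the acyltransferase gene GPAT4 fell under sunitinib (-0.42 ± 0.06 and -0.41) and rose under compound 32 (0.24 ± 0.06). GPAM (-0.32 ± 0.09 and -0.23) and AGPAT5 (-0.17 ± 0.06 and -0.18) fell under sunitinib, and AGPAT4 (-0.42 ± 0.10) and the scarce DGAT2 (-0.96 ± 0.24) under compound 32. Of 16 genes of mitochondrial fatty acid oxidation 14 were measured, and 2 rose and 1 fell under sunitinib, CPT2 (0.83 ± 0.10 and 0.79), ACADS (0.50 ± 0.14 and 0.54) and HADH (-0.42 ± 0.09 and -0.46). Compound 32 raised 1, ACAA2 (0.47 ± 0.12), with medians of 0.09 and 0.05. With sunitinib replicate 3 left out, 3 rose and 5 fell under sunitinib, and 4 rose and 1 fell under compound 32.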

How the data were processed

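Polyadenylated RNA of 9 HEYA8 samples was sequenced, per the labels' protocols. The authors deposited 1 table of raw counts of reads per gene for 58735 genes, with a length for each gene. The submitters' processing notes list fastp, HISAT2 2.0.5, featureCounts, DESeq2 and edgeR and the builds mm10 and hg38, without roles. The strand setting and the handling of reads with several matches are not stated in those notes or in the labels. All 58735 gene IDs, names and coordinates matched GENCODE 29 (GRCh38). 15 pseudogenes of members averaged at most 0.417 CPM.

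Genes were kept by edgeR's filterByExpr (15232 genes) and scaled by TMM, and CPM uses those factors. One quasi-likelihood model (edgeR 4.0.16, limma 3.58.1, R 4.3.3, robust, 6 residual degrees of freedom) over all 9 libraries gave the 3 comparisons, with Benjamini-Hochberg adjustment over all genes and a threshold of 0.05. The standard error is the log2 fold change over the square root of its F statistic. Library totals of 15498101 to 18006171 counts limit the precision of scarce genes most, such as ABCG1 and TM7SF2. DESeq2 1.42.0, limma voom, other scalings and filters, a replicate block, and fits that left out libraries were the alternatives. The ratio without FASN and SCD, and with each library left out, was added after seeing the data. The model was also run on counts simulated from the spread it had itself fitted. No simulated library was set apart as sunitinib replicate 3 was, so that run cannot show how the calls hold with such a library. Members and gene lists were chosen with earlier results of these data known. All members are named; those called in any comparison, with or without sunitinib replicate 3, have their value in every library, and up to 4 genes with the smallest p are named per other list and comparison. Some genes that this rule picks are not reported here. Sample numbers come from the titles. Same-numbered samples did not deviate together, with correlations from -0.08 to 0.06, so no pairing was used.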

Additional observations from a re-analysis of the deposited data

How the results depend on the processing

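No called member changed direction under any alternative run. Of 2394 alternative values, 61 of members not called changed sign, none of them was called there, and they reached at most 0.16 in size. In a fit of only the 6 libraries compared, 5 fatty acid genes were called under sunitinib and 9 under compound 32. Over all genes that fit called 5022 under sunitinib and 6372 under compound 32. At an adjusted p under 0.01, 4 fatty acid genes were called under sunitinib, and 3948 genes in all under sunitinib and 1715 under compound 32. Leaving out each library in turn gave 8 to 11 sterol and 4 to 11 fatty acid calls under sunitinib, 6 to 14 and 5 to 9 under compound 32, and 6 to 13 and 6 to 11 for compound 32 against sunitinib. For all genes it gave 4738 to 8004 under sunitinib, 2136 to 6548 under compound 32, the highest without sunitinib replicate 3, and 6352 to 9139 between the compounds. The mean ratio of sterol to fatty acid sums was 1.16 times that of DMSO under sunitinib (1.041 to 1.220 leaving out each library, lowest without sunitinib replicate 3) and 1.22 times under compound 32 (1.198 to 1.245). Without the most abundant gene of each branch it was 1.37 under sunitinib and 1.31 under compound 32, and per kilobase of gene length 1.11 and 1.19. Compound 32 over sunitinib was 1.06 (1.003 to 1.176, highest without sunitinib replicate 3), and reversed to 0.952 without the most abundant genes and 0.976 without FASN and SCD. Without the most abundant genes the ratio of sums was 0.447, 0.435 and 0.621 in sunitinib replicates 1 to 3. It was 0.480, 0.467 and 0.483 in those of compound 32 and 0.367, 0.380 and 0.348 in those of DMSO. Per kilobase of gene length the ratio was 0.472, 0.465 and 0.606 in sunitinib replicates 1 to 3. In those of compound 32 it was 0.550, 0.543 and 0.566, and in those of DMSO 0.468, 0.480 and 0.447. On that scale sunitinib replicates 1 and 2 were within the DMSO range, and only replicate 3 was above it. The cause of these shifts was not tested.

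The replicate block called 8 sterol and 7 fatty acid genes under sunitinib, 9 and 5 under compound 32, and 8 and 8 between the compounds, and 5758, 2878 and 7174 genes in all. Of the member calls, 3, 2 and 1 were lost under it: SQLE, ELOVL1 and ELOVL5 under sunitinib, LSS and ABCG1 under compound 32, and ABCG1 between the compounds. DESeq2 and the fit with no filter on low counts also lost both ABCG1 calls for compound 32, and no filter lost SQLE, INSIG2, ELOVL1, ELOVL5 and ACSL3 under sunitinib. Library totals as the scaling lost ACACA and ELOVL5 under sunitinib and LSS under compound 32, and upper-quartile factors lost ACACA and ELOVL5 under sunitinib and HMGCS1, SC5D and ELOVL5 between the compounds. Under sunitinib, library totals added IDI1, FDPS and ME1, upper-quartile factors added these with MVK, NSDHL and FADS1, and upper-quartile factors added MVD between the compounds. Depth limits the scarce members, ABCG1 and TM7SF2 first.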
